A study of Homo sapiens with 4 samples.

Results

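The genes described here are 35 direct targets of the transcription factor p53, listed by name for what their products do, out of the 63677 genes counted in each library. All 35 names had an identifier on the primary chromosomes, C12orf5 under its current symbol TIGAR, and all 35 passed the filter on low counts that left 15398 genes for testing. They were sorted by function into feedback on p53 (5 genes), arrest and growth restraint (6), death receptors (5), other cell death and autophagy (10), DNA repair and nucleotide supply (4), and metabolism, redox and secreted products (5). The RNA-seq data came from IMR90, normal human lung fibroblasts that grow for a limited number of divisions in culture. Cells were transfected by RNAiMAX for 72 h either with a non-targeting control siRNA or with siRNAs against the mRNA of HMGB1, an abundant DNA-binding protein of the nucleus. More than 1 siRNA sequence was used, and the sources do not say whether each isolate received the same ones, so a difference between isolates cannot be told apart from a difference between siRNAs. There were 2 control and 2 HMGB1 knockdown libraries of poly(A) RNA, and each group had 1 library from each of the isolates I90-10 (replicate 1) and I90-79 (replicate 2). The comparison asks how this arm of the p53 response stands when HMGB1 is removed, since HMGB1 is known to leave the nucleus when cells become senescent.

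p53 is kept low in unstressed cells by MDM2, a ubiquitin ligase that is itself encoded by a p53 target, which closes a negative feedback loop. When DNA is damaged, kinases free p53 from MDM2, and p53 binds response elements near its target genes and raises their transcription. The targets stop the cell cycle, help to repair DNA, arm the death receptors and the mitochondrial death pathway, adjust metabolism and switch p53 off again. In fibroblasts p53 and its target CDKN1A, which encodes the CDK inhibitor p21, are best known for holding cells in arrest as they age in culture.

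The libraries held between 29861687 and 35317010 counted reads. HMGB1 itself was at 181 and 237 CPM (read counts brought to a common library size with TMM factors) in the control libraries and at 16.0 and 18.9 CPM in the knockdown libraries, a log2-fold change (log2FC) of −3.59 (standard error, SE, 0.19, adjusted p = 0.00751), so each library matched its label. The 7 fibroblast markers measured, led by COL1A1, COL1A2 and COL3A1, summed to between 17580 and 33220 CPM, and 2 of them were lower in the paired fit with the isolate as a block, THY1 (422 and 200 CPM in control, 229 and 93.3 CPM in knockdown libraries) and PDGFRB (186 and 92.5 CPM against 103 and 64.9 CPM). Neither was called by RUVs and DESeq2, described with the calls, which instead called COL3A1 (7835 and 5257 CPM in control, 9849 and 7412 CPM in knockdown libraries) and FAP (136 and 77.3 CPM against 165 and 131 CPM) higher. The 4 epithelial markers summed to at most 0.715 CPM and the 3 leukocyte markers to at most 0.208 CPM, with KRT5 and CD3E at 0 counts in all libraries. Of the 2 endothelial markers measured CDH5 was at 0 counts throughout and VWF was at 1.36 and 0.923 CPM in control and 4.16 and 2.59 CPM in knockdown libraries, and the part of these cells and of the fibroblast markers that moved in the results was not tested. The isolates differed from each other in both groups: over the 15398 genes tested, the difference between the isolates in control cells had a correlation of 0.464 with that in knockdown cells (across genes, which are not independent replicates). The comparison is therefore given in 2 forms, the fit on group alone and a paired fit in which the isolate is a replicate block. In bulk RNA, fewer cells with a transcript and less of it per cell cannot be told apart.

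p53 binds DNA as a tetramer on a response element made of a pair of repeats of 10 bases. Each repeat has a fixed C and G around an A/T-rich centre, flanked by purines on one side and pyrimidines on the other. The 10 kb on each side of the annotated 5′ end of each gene tested were searched in hg19 for such a full site of 20 bases with no spacer, with both C and G in place in each repeat and at most 1 other letter differing. The allowance of 1 letter was chosen after the search without it had been seen, and the consensus reads the same on both strands. A match was found for 8 of the 35 target genes (22.9%) and for 334 of all 15398 genes (2.17%), and one with no letter differing for 2 (5.71%) and 44 (0.286%). The 35 genes were listed as p53 targets, so their larger share holds no information on the knockdown. Sites with a spacer or farther away were not searched for, so a gene without a match may still hold one. The matches found are shown because they have the form of DNA sequence that p53 is known to bind. They are matches of letters only, and binding to them was not measured in these libraries. They are written 5′ to 3′ on the strand of the gene, with the central 4 bases of each repeat in capitals.
ZMAT3: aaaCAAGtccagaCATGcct
PLK2: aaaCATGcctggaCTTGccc
GDF15: agaCCTGcccggaCATGtcc
PERP: aggCAAGctccagCTTGttc
EDA2R: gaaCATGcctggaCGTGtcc
DDB2: aagCTGGtttgaaCAAGccc
CCNG1: gcaCAAGcccaggCTAGtcc

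ZMAT3 and PLK2 held the sites with no letter differing. That of ZMAT3 lay in an intron, at chr3:178787976-178787995 on the minus strand, 2082 bases into the gene. That of PLK2 lay outside the gene, at chr5:57758101-57758120 on the minus strand and at −2023 relative to the 5′ end. The site of GDF15 lay outside the gene as well, at chr19:18484757-18484776 on the plus strand and at −774. Introns held those of PERP (chr6:138425207-138425226, minus strand, at 3432), EDA2R (chrX:65858555-65858574, minus strand, at 544) and CCNG1 (chr5:162864932-162864951, plus strand, at 367). The site of DDB2 lay in an exon, at chr11:47236520-47236539 on the plus strand and at 37. An intron of RRM2B held the remaining match, at 2269. Of these 8 genes, ZMAT3, EDA2R, DDB2 and RRM2B were lower and PERP and GDF15 higher in the paired fit described next, while PLK2 and CCNG1 were not called. A match was thus held by 4 of the 11 target genes called lower, 2 of the 4 called higher and 2 of the 20 not called. Of all genes tested, that fit called 7.84% lower and 6.68% higher. Whether a match goes with a call was not tested.

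Most of the 35 target genes had lower levels upon HMGB1 knockdown, while a small number, led by the secreted factor GDF15, had higher ones. The fitted log2FC was negative for 26 genes and positive for 9, and the median was −0.35, against −0.01 over all genes tested. The median was −0.43 in I90-10 and −0.28 in I90-79. In both isolates 25 genes were lower (71.43%, against 39.43% of all genes tested) and 6 were higher, against 5987 of all 15398. MDM2, BTG2, PLK3 and POLH had opposite signs in the isolates, as did 3340 of all genes tested. In 22 genes both knockdown libraries were below both control libraries, against 30.2% of all genes tested, and in 5 they were above, against 29.8%. The 35 genes were chosen with earlier results of these data known, so these shares describe the list and do not test it.

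With edgeR's quasi-likelihood test on group alone, 0 of the 35 genes passed an adjusted p below 0.01 together with an absolute log2FC above 0.6, in either direction. That test called 0.0649% of all genes higher and 0.136% lower, and 23 of the target genes had an unadjusted p below 0.05, against 28.3% of all genes. Of these, 18 had a negative log2FC, against 14.7% of all genes. The paired fit called 4 target genes higher, where it called 6.68% of all genes, and 11 lower, where it called 7.84%. These were FBXO22, PERP, NINJ1 and GDF15 among the higher, and PPM1D, ZMAT3, FAS, TNFRSF10C, EDA2R, APAF1, DRAM1, TP53INP1, DDB2, RRM2B and TP53I3 among the lower. RUVs, which estimates a factor of unwanted variation from the replicates, followed by DESeq2 called 4 higher, against 4.95% of all genes, and 9 lower, against 5.38%. All 13 were also called in the paired fit, which in addition called TP53INP1 and DDB2. DESeq2 alone called 3 higher and 9 lower, against 728 higher and 818 lower of all 15398 genes. For single genes a call of lower or higher refers to the paired fit, and the values of log2FC, SE and adjusted p come from the fit on group alone unless the paired fit is named. With 2 libraries in a group, an exact permutation test cannot give a two-sided p below 0.333 for a single gene, so p-values rest on the spread shared across genes and describe these 4 libraries.

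**Figure D1:**
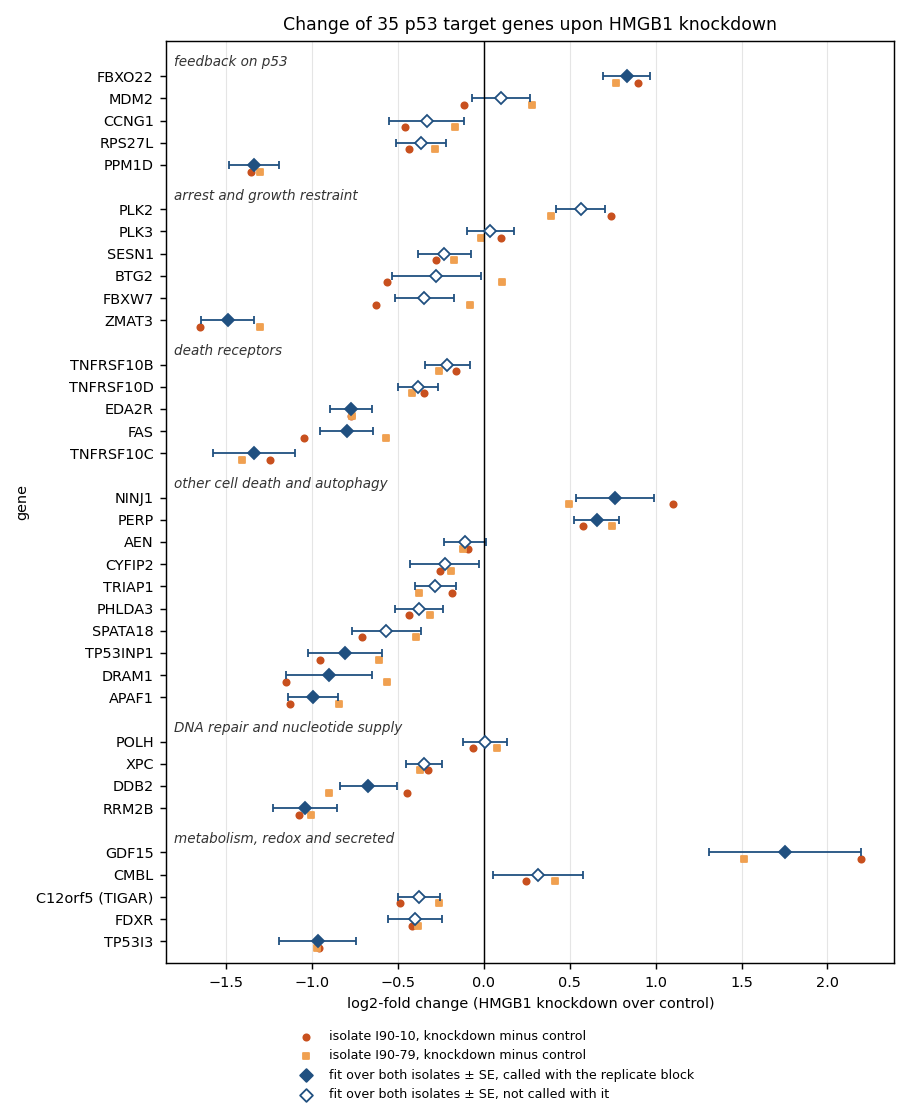
Log2-fold change (HMGB1 knockdown over control, x axis) of the 35 p53 target genes (y axis), grouped by function. Diamonds with bars give the fit over both isolates ± its standard error, filled where the gene was called with the replicate block (4 higher, 11 lower), and the small symbols give each isolate. All 5 genes of the death receptor group lie left of 0 in both isolates, against 39.43% of all genes tested, and GDF15 lies farthest to the right.

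Levels spanned a wide range. Per kb of exon, in the mean of the control libraries, CYFIP2 was lowest at 1.15 CPM per kb. GDF15 and the death receptor gene TNFRSF10B were highest in that mean at 130 and 117 CPM per kb, followed by CCNG1 at 89.6 and PLK2 at 78.9. The place of GDF15 rests on unlike control libraries, at 162 CPM in I90-10 and 381 CPM in I90-79. In the mean of the knockdown libraries GDF15 stood at 439 CPM per kb, above TNFRSF10B at 101, and PLK2 at 117.

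**Figure D2:**
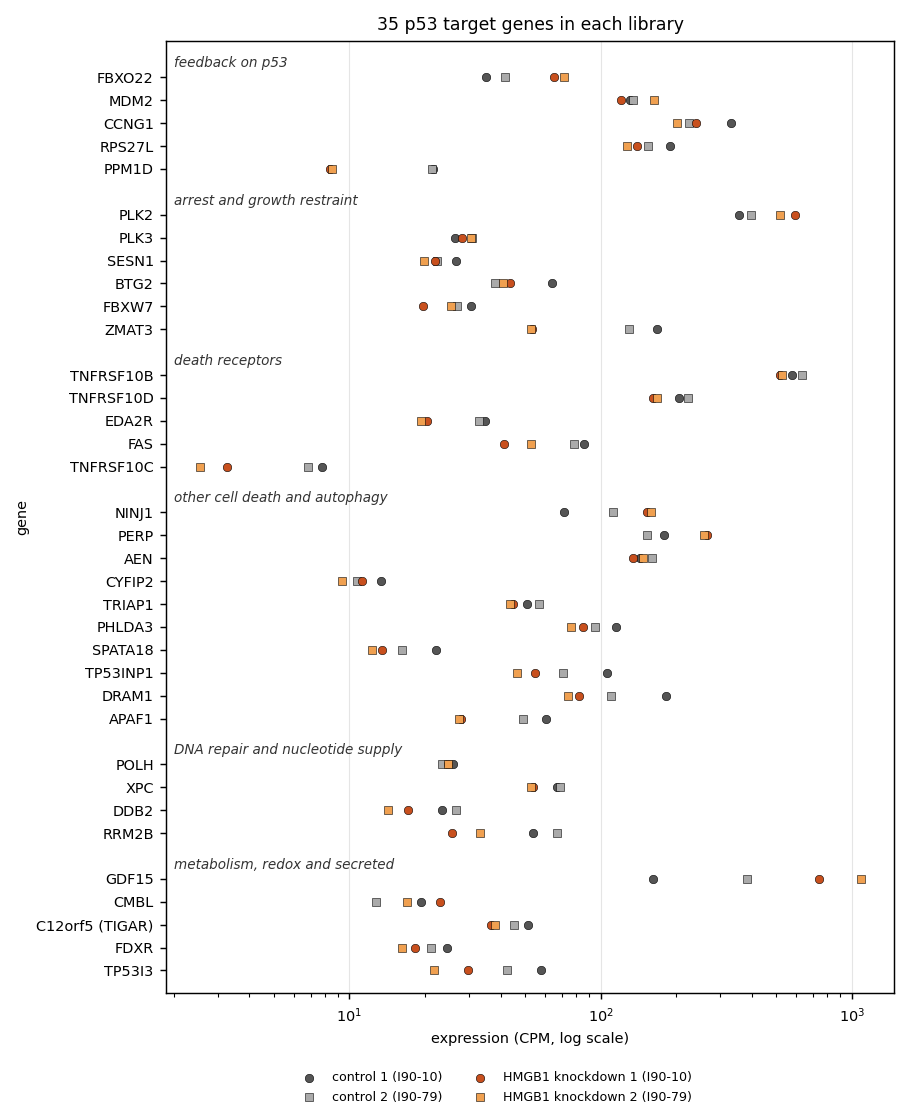
Expression (CPM, log scale, x axis) of the 35 p53 target genes (y axis) in each of the 4 libraries, with circles for isolate I90-10, squares for I90-79, grey for control and orange for HMGB1 knockdown. The orange and grey symbols are apart for ZMAT3, PPM1D, RRM2B and GDF15 and mixed for MDM2, PLK3 and POLH.

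Among the genes that feed back on p53, the phosphatase PPM1D was lower and the ubiquitin ligase subunit FBXO22 higher, while MDM2 showed no common direction. MDM2, the chief negative regulator of p53, was at 130 and 134 CPM in control and at 120 and 163 CPM in knockdown libraries. The groups overlapped, with 1 knockdown library below and 1 above both controls. Its log2FC was 0.10 (SE 0.17, adjusted p = 0.744), being −0.11 in I90-10 and 0.28 in I90-79. Of the exonic bases of MDM2 15.27% overlap other annotated genes. PPM1D, also called WIP1, takes phosphates off p53 and off the kinases that activate it. It was at 21.6 and 21.2 CPM in control and at 8.38 and 8.55 CPM in knockdown libraries. Both knockdown libraries lay far below both controls, and the replicates of each group were nearly equal. Its log2FC was −1.34 (SE 0.14, adjusted p = 0.0142), and in the paired fit the adjusted p was 0.000282, with a range of 5.94e-09 to 0.0911 over the alternatives tried.

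FBXO22, the substrate receptor of a ubiquitin ligase that acts on p53 carrying methyl marks, went the other way. It was at 35.03 and 41.68 CPM in control and at 65.3 and 71.2 CPM in knockdown libraries, without overlap. The log2FC was 0.83 (SE 0.14, adjusted p = 0.0306), or 0.90 in I90-10 and 0.77 in I90-79. The remaining feedback genes were not called. CCNG1, a cyclin that brings a phosphatase to MDM2, had a log2FC of −0.33 (SE 0.22), with overlapping groups. RPS27L, a ribosomal protein relative that binds MDM2, had one of −0.36 (SE 0.14), with both knockdown libraries at 127 and 140 CPM below the controls at 155 and 189 CPM. The median log2FC of the 5 genes was −0.33, and it was −0.03 without control replicate 1, −0.50 without control replicate 2 and −0.09 with RUVs and DESeq2.

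Of the 6 genes for arrest and growth restraint, only ZMAT3 was called, and it had the most negative log2FC of all 35. ZMAT3 encodes a zinc finger protein that binds RNA and restrains growth downstream of p53. It was at 168 and 130 CPM in control and at 53.2 and 52.6 CPM in knockdown libraries, so the knockdown libraries were alike and well below both controls. This gave a log2FC of −1.49 (SE 0.16, adjusted p = 0.0131), a level 2.81-fold lower, and −1.65 and −1.30 in I90-10 and I90-79. In the paired fit the adjusted p was 0.000101, and it ranged from 1.67e-17 to 0.0841 over the alternatives.

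PLK2, a kinase induced by p53 that restrains the cell cycle and centriole duplication, stood above the controls. It was at 355 and 397 CPM in control and at 592 and 520 CPM in knockdown libraries, without overlap. Its log2FC of 0.56 (SE 0.14, adjusted p = 0.0746) stayed under the threshold of 0.6, with an adjusted p of 0.00689 in the paired fit and 0.00159 to 0.266 over the alternatives. ZMAT3 and PLK2, the genes of this group with an exact match to the p53 consensus, thus had log2FC values of opposite sign. SESN1, a sestrin that curbs growth signalling through mTORC1, had a log2FC of −0.23 (SE 0.15). FBXW7, a ubiquitin ligase subunit that removes cyclin E and MYC, had one of −0.35 (SE 0.17), made up of −0.63 in I90-10 and −0.08 in I90-79. The antiproliferative gene BTG2 was at 64.1 CPM in control replicate 1, above the other 3 libraries at 37.9 to 43.4 CPM, and the kinase gene PLK3 was between 26.3 and 30.7 CPM in all 4. Neither had the same sign in both isolates. The median log2FC of the 6 genes was −0.25, and it was −0.08 without control replicate 1, −0.39 without control replicate 2 and −0.08 with RUVs and DESeq2.

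The death receptor group holds signalling receptors, decoys and a receptor without a death domain. It was the one in which all members had lower values in both isolates and no gene's groups overlapped. Its median log2FC was −0.77, and 3 of the 5 genes were called lower. Of all genes tested, 39.43% were lower in both isolates, and 30.2% had both knockdown libraries below both controls. The paired fit called 7.84% of all genes lower. FAS, the receptor whose death domain recruits FADD and caspase-8, was at 85.7 and 78.1 CPM in control and at 41.4 and 52.7 CPM in knockdown libraries. Both knockdown libraries lay below the controls, and the one from I90-10 was the lower. FAS thus had a log2FC of −0.80 (SE 0.16, adjusted p = 0.0436), with −1.05 in I90-10 and −0.57 in I90-79, and in the paired fit the adjusted p was 0.00255 (2.51e-05 to 0.153 over the alternatives). Of the exonic bases of FAS 12.1% overlap ACTA2 on the other strand. Without a stated strand setting reads there cannot be assigned to one of them, and ACTA2 was lower too in the paired fit.

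EDA2R, a receptor for an ectodysplasin that signals without a death domain, changed by nearly the same amount in each isolate. It was at 34.7 and 32.8 CPM in control and at 20.3 and 19.2 CPM in knockdown libraries. The log2FC was −0.77 (SE 0.12, adjusted p = 0.0292), and −0.77 in each isolate. TNFRSF10C, a decoy receptor for the ligand TRAIL that lacks an intracellular domain, had the fewest reads of the 35 genes in every library. It was at 7.80 and 6.81 CPM in control and at 3.26 and 2.53 CPM in knockdown libraries. Its log2FC was −1.34 (SE 0.24, adjusted p = 0.0369). Cut into pieces of 32 bases, its transcripts share 31.1% of them with other genes, so its level is uncertain where reads could not be placed.

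The other TRAIL receptors had smaller differences and higher levels per kb of exon, at 117 CPM per kb for TNFRSF10B and 60.5 for TNFRSF10D in control cells against 2.78 for TNFRSF10C. TNFRSF10B, the receptor that carries the TRAIL death signal, was at 577 and 631 CPM in control and at 515 and 527 CPM in knockdown libraries. Its log2FC was −0.21 (SE 0.13, adjusted p = 0.343). TNFRSF10D, a decoy with a truncated death domain, was at 205 and 223 CPM in control and at 161 and 167 CPM in knockdown libraries, with a log2FC of −0.38 (SE 0.12, adjusted p = 0.107). Neither was called in the paired fit. TNFRSF10A, the other signalling TRAIL receptor and no member of the list, went the other way. It was at 7.22 and 10.75 CPM in control and at 12.4 and 12.01 CPM in knockdown libraries, without overlap. Its log2FC was 0.44 (SE 0.24), with 0.78 in I90-10 and 0.16 in I90-79, and it was not called either. The shared direction of the death receptor group thus holds for the listed genes and not for TNFRSF10A. Of the exonic bases of TNFRSF10A 16.6% overlap TNFRSF10A-DT and TNFRSF10A-AS1 on the other strand, so its level carries the same uncertainty as that of FAS.

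The 10 genes of other cell death pathways and autophagy were divided, with 8 lower and 2 higher in both isolates, and 3 and 2 of them called. Of all 15398 genes tested, 39.43% were lower and 5987 genes higher in both isolates. The paired fit called 7.84% of them lower and 6.68% higher. APAF1, the scaffold of the apoptosome that activates caspase-9 after cytochrome c release, was at 60.8 and 49.1 CPM in control and at 27.8 and 27.4 CPM in knockdown libraries. The knockdown libraries were alike and below both controls. This gave a log2FC of −0.99 (SE 0.15, adjusted p = 0.0251), a level 1.99-fold lower, and the adjusted p over the alternatives ran from 3.70e-07 to 0.136. Of its exonic bases 9.4% overlap ANKS1B on the other strand.

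DRAM1, a lysosomal membrane protein that promotes autophagy, was at 182 and 110 CPM in control and at 81.8 and 74.3 CPM in knockdown libraries. TP53INP1, a stress protein that takes part in autophagy and assists p53, was at 106 and 71.1 CPM in control and at 54.6 and 46.6 CPM in knockdown libraries. In both genes the control from I90-10 was the highest library and the groups were apart. Their log2FCs were −0.90 (SE 0.25, adjusted p = 0.0901) and −0.81 (SE 0.22, adjusted p = 0.0842). DRAM1 was at −1.15 in I90-10 and −0.56 in I90-79, and TP53INP1 at −0.96 and −0.61. Without control replicate 1 the log2FC of each was −0.49, smaller in size than the threshold of 0.6. In the paired fit the adjusted p values were 0.00283 and 0.00161, and TP53INP1 was not called by RUVs and DESeq2.

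PERP, a membrane protein of desmosomes that takes part in p53-dependent death, was at 178 and 153 CPM in control and at 266 and 257 CPM in knockdown libraries. NINJ1, which ruptures the plasma membrane of dying cells, was at 71.2 and 112 CPM in control and at 153 and 159 CPM in knockdown libraries. The groups were apart in both genes, and the NINJ1 controls differed more from each other than its knockdown libraries did. The log2FCs were 0.66 (SE 0.13, adjusted p = 0.0448) for PERP and 0.76 (SE 0.23, adjusted p = 0.103) for NINJ1. NINJ1 differed between the isolates in size, with 1.10 in I90-10 and 0.50 in I90-79.

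The other 5 genes of the group had log2FCs from −0.57 to −0.11 and were not called. SPATA18, which acts in mitochondrial quality control, was the most negative at −0.57 (SE 0.20), with groups that did not overlap. PHLDA3, a repressor of AKT, had a log2FC of −0.38 (SE 0.14), and 18.8% of its transcript pieces are shared with other genes. TRIAP1, a small mitochondrial protein that opposes death, had one of −0.28 (SE 0.12). The cytoskeletal regulator CYFIP2 and the nuclease AEN had overlapping groups, with log2FCs of −0.23 (SE 0.20) and −0.11 (SE 0.12).

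Among the genes for DNA repair and nucleotide supply, RRM2B and DDB2 were lower. RRM2B, the ribonucleotide reductase subunit that provides deoxynucleotides outside S phase, was at 54.0 and 66.9 CPM in control and at 25.6 and 33.2 CPM in knockdown libraries. Both knockdown libraries were below both controls, and the isolates kept their order, I90-79 being the higher in each group. RRM2B had a log2FC of −1.04 (SE 0.19, adjusted p = 0.0367), and −1.08 and −1.01 in the isolates. In the paired fit the adjusted p was 0.000252, with 3.51e-10 to 0.136 over the alternatives.

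DDB2 recognizes ultraviolet lesions for nucleotide excision repair. It was at 23.4 and 26.5 CPM in control and at 17.1 and 14.2 CPM in knockdown libraries. The groups did not overlap, and the difference was larger in I90-79 (−0.90) than in I90-10 (−0.44). Its log2FC was −0.67 (SE 0.16, adjusted p = 0.0686), and it was called in the paired fit (adjusted p = 0.00871, 0.00803 to 0.282 over the alternatives) but not by RUVs and DESeq2. XPC, which recognizes distorted DNA in the same pathway, was at 67.1 and 68.6 CPM in control and at 53.63 and 52.99 CPM in knockdown libraries, with a log2FC of −0.35 (SE 0.11) that stayed under the threshold. Of its exonic bases 15.24% overlap other genes. POLH, a polymerase that copies past ultraviolet lesions, stayed between 23.3 and 25.8 CPM in all libraries and had a log2FC of 0.01 (SE 0.13). The median log2FC of the 4 genes was −0.51.

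In the last group GDF15 had the largest positive log2FC of the 35 genes and TP53I3 a negative one. GDF15, a secreted stress cytokine of the TGF-beta family, was at 162 and 381 CPM in control and at 741 and 1091 CPM in knockdown libraries. Both knockdown libraries were above both controls, and in each group the I90-79 library was the higher. The log2FC was 1.75 (SE 0.44, adjusted p = 0.0729), a level 3.37-fold higher, with 2.20 in I90-10 and 1.52 in I90-79. With the isolate as a block it was 1.86 (SE 0.16, adjusted p = 0.000152, and 1.52e-22 to 0.241 over the alternatives). Without control replicate 2 the log2FC was 2.50, and across the libraries left out in turn its lowest value was 1.26.

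TP53I3, an oxidoreductase that raises reactive oxygen, was at 58.0 and 42.6 CPM in control and at 29.7 and 21.7 CPM in knockdown libraries. The groups were apart and the isolates kept their order. The log2FC was −0.97 (SE 0.23, adjusted p = 0.0629), with −0.96 and −0.97 in the isolates, and the adjusted p of the paired fit was 0.000358 (1.10e-06 to 0.231 over the alternatives). C12orf5, or TIGAR, which lowers the flow through glycolysis, had a log2FC of −0.37 (SE 0.12), and 22.3% of its transcript pieces are shared with other genes. FDXR, the reductase that hands electrons to mitochondrial ferredoxin, had one of −0.40 (SE 0.15). CMBL, a hydrolase, had one of 0.32 (SE 0.26) with overlapping groups. None of these 3 was called.

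Sums over a group weigh each gene by its number of reads, and they did not follow the count of genes with lower values. The 35 genes together summed to 3713 and 3716 CPM in control and to 3915 and 4191 CPM in knockdown libraries. Without GDF15 the sum was 3551 and 3335 CPM in control and 3174 and 3099 CPM in knockdown libraries, so the sign of the difference rested on that gene. The same held within its own group, where the other 4 genes summed to 153 and 122 CPM in control and to 108 and 92.7 CPM in knockdown libraries. The death receptor group summed to 910 and 972 CPM in control and to 741 and 769 CPM in knockdown libraries. The repair genes summed to 170 and 185 CPM in control and to 121 and 125 CPM in knockdown libraries. These were the groups whose summed levels were lower in both knockdown libraries by the widest margin. The arrest genes, of which PLK2 made up the largest share, summed to 670 and 645 CPM in control and to 758 and 689 CPM in knockdown libraries. PLK2 alone was at 355 and 397 CPM in control and at 592 and 520 CPM in knockdown libraries. The sign of the difference in this group thus rested on PLK2, and the sum of its other genes was lower in knockdown libraries.

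**Figure D3:**
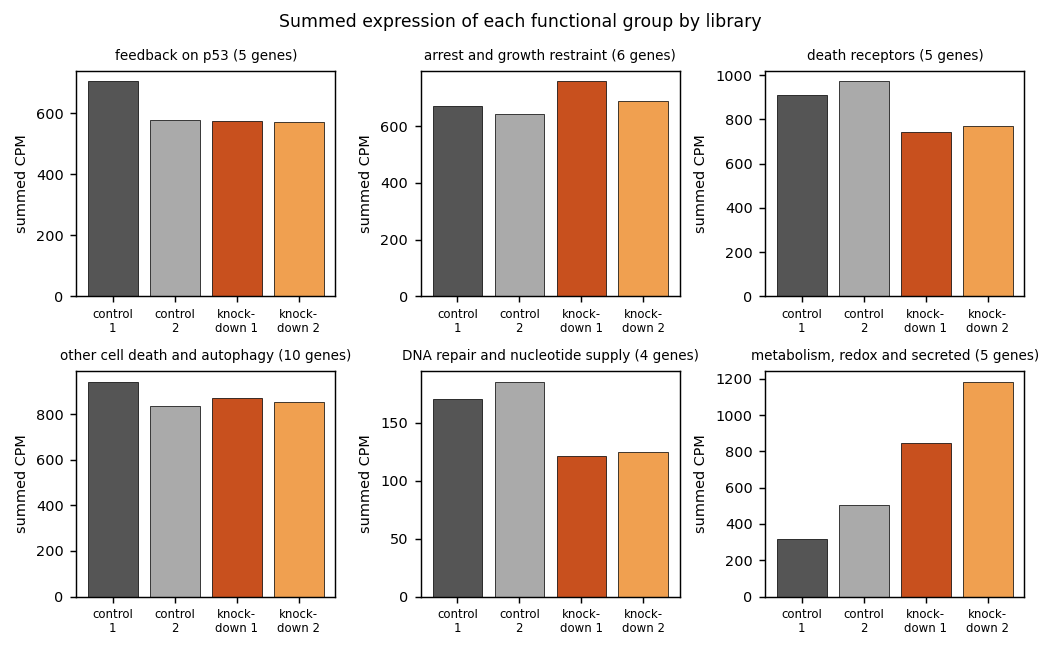
Summed expression (CPM, y axis, from 0) of each of the 6 functional groups in the 2 control (grey) and 2 HMGB1 knockdown (orange) libraries, 1 bar for each library. The bars of the death receptors (741 and 769 CPM) and of the repair genes (121 and 125 CPM) are lower in knockdown cells, while those of metabolism, redox and secreted products are higher, at 849 and 1184 CPM against 315 and 503 CPM; without GDF15 they are lower, at 108 and 92.7 CPM against 153 and 122 CPM.

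Other genes of the pathway were followed in 3 lists. Of 15 genes of the p53 family and its regulators, 13 were tested, with 11 positive and 2 negative log2FCs, a median of 0.22 and 0 calls on group alone. Over all 15398 genes tested, 7642 had a positive and 7756 a negative log2FC. The paired fit called 1 of the 13 higher, where it called 6.68% of all genes. This was HIPK2, a kinase that phosphorylates p53. HIPK2 was at 417 and 410 CPM in control and at 829 and 927 CPM in knockdown libraries (log2FC 1.09, SE 0.14, adjusted p = 0.0185). RUVs followed by DESeq2, which called 4.95% of all genes higher, called HIPK2 and also CDKN2A. CDKN2A encodes the MDM2 inhibitor ARF and the CDK inhibitor p16. It was at 41.5 and 32.9 CPM in control and 63.4 and 43.5 CPM in knockdown libraries. MDM4, the partner of MDM2 that masks the activation domain of p53, was at 15.0 and 15.4 CPM in control and at 16.0 and 16.1 CPM in knockdown libraries (log2FC 0.08, SE 0.14, adjusted p = 0.758).

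Of 16 other p53 targets 14 were tested, and their median was −0.05. CDKN1A was at 1118 and 1095 CPM in control and at 1307 and 1441 CPM in knockdown libraries. Both knockdown libraries were above the controls, but its log2FC of 0.31 (SE 0.15, adjusted p = 0.229) was not called. In the paired fit PMAIP1 and IER3 were higher and GADD45A, BCL2L1, SESN2, CASP1 and ACTA2 lower, of which CASP1 and ACTA2 were not called by RUVs and DESeq2. Of all genes tested, the paired fit called 6.68% higher and 7.84% lower. PMAIP1, a BH3-only death protein, was at 26.7 and 38.1 CPM in control and at 89.2 and 120 CPM in knockdown libraries (log2FC 1.69, SE 0.23). IER3, an immediate early gene that modulates survival, was at 138 and 347 CPM in control and at 555 and 887 CPM in knockdown libraries (log2FC 1.57, SE 0.48). In both, the I90-79 library was the higher in each group, as for GDF15. Of the lower genes, BCL2L1, which encodes the survival protein BCL-XL, had a log2FC of −1.21 (SE 0.12), and GADD45A, a growth arrest gene, one of −1.01 (SE 0.18). SESN2, a sestrin, had one of −0.78 (SE 0.18) and CASP1, the inflammatory caspase, one of −0.76 (SE 0.18). ACTA2, the smooth muscle actin of myofibroblasts, had one of −2.07 (SE 0.64), and its control libraries differed widely, at 235 and 61.6 CPM. Without control replicate 1 the log2FC of ACTA2 was −0.81, and without control replicate 2 that of IER3 was 2.38. Of the exonic bases of IER3 26.47% overlap IER3-AS1 on the other strand. For ACTA2 31.29% overlap ACTA2-AS1 and FAS on the other strand.

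The 12 cell cycle genes that p53 represses through p21 and the DREAM complex had a median log2FC of 0.04. In 9 of the 12 the isolates had opposite signs, against 3340 of all 15398 genes tested. The median was 0.42 in I90-10 and −0.32 in I90-79. The paired fit called 0 of the 12, and 3 had an unadjusted p below 0.05 there, against 43.6% of all genes. RUVs followed by DESeq2 called MKI67 and TOP2A lower, where it called 5.38% of all genes lower.

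**Figure D4:**
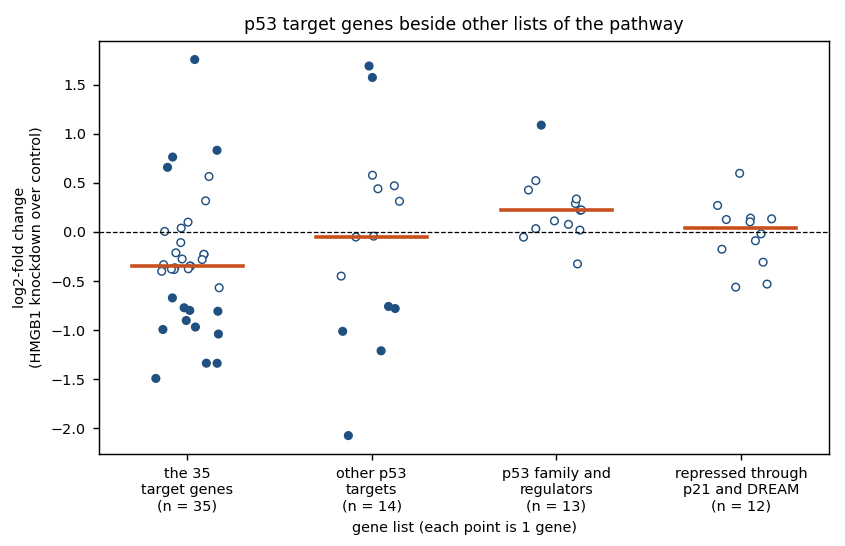
Log2-fold change (HMGB1 knockdown over control, y axis) of each tested gene of the 35 p53 targets and of the 3 other lists of the pathway (x axis), filled where the gene was called with the replicate block. The orange lines give the medians of −0.35, −0.05, 0.22 and 0.04, and the dashed line gives the median of all genes tested.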

How the data were processed

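Poly(A) RNA of 4 IMR90 samples was made into TruSeq libraries and sequenced paired-end. The authors mapped reads to hg19 with STAR and counted unique reads with featureCounts, and the deposited counts are raw read counts per gene, 1 file a library, without normalization. Tool versions, the strand setting and how pairs were counted are not given in the sources used here.

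Tests ran in R 4.3.3 with edgeR 4.0.16 on limma 3.58.1, using filterByExpr, TMM, the quasi-likelihood test and Benjamini-Hochberg adjustment over all 15398 genes tested. Calls needed an absolute log2-fold change above 0.6 and an adjusted p below 0.01. Log2-fold changes within an isolate used log2 CPM with a prior count of 2. The design has no term for the isolate. Since same-numbered libraries share an isolate, a fit with the isolate as replicate block (correlation of the isolate differences 0.464) stands beside it. Alternatives were size factors of DESeq2 1.42.0, no filter, DESeq2, RUVs with 1 factor (written out from its description) and DESeq2, an adjusted p below 0.05, and each library left out. The scripts were tested on simulated data.

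Depth was 29869338 and 35317010 counts in control and 29861687 and 31086475 in knockdown libraries. The labels name isolates but not separate cultures, so p-values measure the spread between these libraries. The target genes and the lists were chosen with earlier results of these data known. All 35 are accounted for. Given in full are those called by any of the 3 main fits, the smallest p and largest change in each group, and MDM2, FAS and GDF15. Of the other lists MDM4, CDKN1A and genes called with the block are named, a further gene of that rule is not reported here, and TNFRSF10A, CDKN2A, MKI67 and TOP2A were named after their values were seen. Of 96 listed symbols 95 were matched. Gene positions, lengths, overlaps and 5′ ends came from the annotation deposited with the counts. GENCODE lifted to hg19 placed the p53 sites in exons or introns. It also gave the transcripts, whose shared sequence was counted in pieces of 32 bases. Versions for the sequence search were Python 3.11.15 and numpy 2.4.6.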

Additional observations from a re-analysis of the deposited data

Results flagged for a closer look

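MDM2 had opposite log2-fold changes in the isolates, −0.11 in I90-10 (95% counting interval −0.18 to −0.05) and 0.28 in I90-79 (0.22 to 0.34). Each interval leaves out 0, but it covers counting error only, and the difference between the isolates was not tested, since there is 1 library for each isolate and group. BTG2 (−0.56 and 0.11), PLK3 (0.10 and −0.02) and POLH (−0.06 and 0.08) also had opposite signs, with 1 or both of their intervals holding 0.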

How the results depend on the processing

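The fit on group alone called 0 of the 35 genes in either direction. The paired fit with the replicate block and the fit with no filter on low counts each called 4 higher and 11 lower, the same 15 genes. RUVs with DESeq2 gave 4 and 9, DESeq2 gave 3 and 9, and an adjusted p below 0.05 gave 2 and 7, and all of these were among the 15. With each library left out in turn, between 0 and 1 genes were called higher and between 0 and 3 lower, and the fits without a knockdown library called none. Over all genes, calls (higher and lower) numbered 10 and 21 on group alone, 1028 and 1207 with the block, 1118 and 1275 with no filter, 728 and 818 with DESeq2, 762 and 829 with RUVs, 575 and 668 at an adjusted p below 0.05, 41 and 73 without control replicate 1, 182 and 221 without control replicate 2, and 0 and 0 without either knockdown replicate. The cause of these differences was not tested. The median log2-fold change of the 35 genes was negative throughout, from −0.46 without control replicate 2 to −0.27 when control replicate 1 was left out. Of the 35 genes, signs turned for MDM2, BTG2, PLK3 and POLH, none of them called. With RUVs they turned for MDM2 (−0.026), BTG2 (0.020) and PLK3 (−0.046). With each library left out, the range was −0.14 to 0.30 for MDM2, −0.61 to 0.15 for BTG2, −0.070 to 0.16 for PLK3 and −0.067 to 0.08 for POLH. HMGB1 ranged from −3.77 to −3.38. Depth was least for TNFRSF10C, with 94 and 79 reads in the knockdown libraries.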
